A study of Mus musculus with 14 samples.

Results

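The effect of an adeno-associated virus (AAV9) carrying YAP5SA, an active form of the transcriptional co-activator YAP, was measured in nuclei of the juvenile mouse heart by setting every library that received the virus against every library that did not. Membership followed the treatment labels alone: 5 of the 14 RNA-seq libraries carried YAP5SA and 9 did not. Of the 54446 genes in the count table, 16752 passed a filter on low counts and were tested. With the virus were the YAP5SA group (n = 3) and the YAP5SA_MEF2A group (n = 2), which received a YAP5SA virus and a second AAV9 carrying human MEF2A (hMEF2A). Without it were the MEF2A group (n = 4), given the hMEF2A virus alone, and the Control group (n = 5), given no virus. All mice were wildtype animals of the outbred ICR strain. Each virus was injected into the abdomen at postnatal day 7, at 1E11 genome copies per virus, and hearts were taken 5 days later at postnatal day 12. Both transgenes were driven by the cardiac troponin T (cTnT) promoter, which is active in cardiomyocytes. Nuclei were enriched with PCM1, a protein of the cardiomyocyte nuclear surface, before RNA isolation. No group received a virus without a transgene, so in YAP5SA against Control the virus and its transgene cannot be told apart, and in YAP5SA_MEF2A against MEF2A the hearts of the YAP5SA_MEF2A group received 2 viruses and those of the MEF2A group 1. The labels do not say whether replicates were separate animals, so p-values speak only to how far these libraries scatter, and that scatter may be technical.

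YAP is the effector of the Hippo pathway. The kinases MST and LATS, with their scaffold proteins, phosphorylate YAP and its paralog TAZ and keep them out of the nucleus. In YAP5SA the phosphorylated serines are replaced by alanines, so that the protein escapes this control. In the nucleus YAP binds no DNA itself. It acts through TEAD transcription factors, often beside AP-1 factors, on genes for matrix, cytoskeleton, growth factors and cell division, and on genes of the Hippo pathway itself. Mouse cardiomyocytes largely stop dividing in the first weeks after birth, while they build mature sarcomeres and come to depend on mitochondrial oxidation of fatty acids.

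Libraries held 16171068 to 24027622 counts, and 17663337 to 19430731 in the 5 with YAP5SA. Genes of the mitochondrial genome took 32.2% of counts in YAP5SA 3, 60.7% in Control 1, 67.5% in Control 2 and 3.80% to 23.2% in the other 11 libraries. The first principal component, with 27.5% of the variance, put the libraries with YAP5SA at 36.8 to 125 and those without at -64.2 to -8.82. Batches are those of the labels: batch 1 has a pair of libraries from every group, and in batch 2 YAP5SA 3 is the 1 library with the virus beside 5 without. Xist, expressed in females, was at 0 to 0.700 CPM in the 3 YAP5SA libraries, at 758 and 649.6 CPM in YAP5SA_MEF2A 1 and 2, and at 0 to 806 CPM in the 9 libraries without YAP5SA. Levels below are CPM, counts relative to a library's total after scaling by trimmed mean of M-values (TMM), and differences are log2 fold changes of libraries with YAP5SA over those without, with terms for the MEF2A virus and batch.

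Expression differed with YAP5SA across a large part of the transcriptome. Of 16752 genes tested, 1745 were higher (10.4% of all tested) and 1503 were lower (8.97%) at an adjusted p below 0.05 in edgeR's quasi-likelihood test with Benjamini-Hochberg adjustment, 19.4% in either direction. The median size was 1.15 on the log2 scale among higher genes and 0.84 among lower genes, but the gap was small among well-expressed genes. At 50 to 200 CPM the median log2 fold change was 0.81 in higher and -0.71 in lower genes, and at 200 CPM or more 0.81 and -0.76. Below 0.5 CPM it was 4.81 and -4.60, in genes that pass the filter on counts through the libraries where they are high. Of the higher genes 1019 exceeded a log2 change of 1 and 91 exceeded 5. Among the lower genes 530 exceeded 1 and 4 exceeded 5. These counts include genes of low level, so nothing is read from the contrast beyond 5. The median over all genes was 0.059. Of the 1745 higher genes, 875 had every library with YAP5SA above every library without once levels were centred on the libraries without YAP5SA of the same batch, and 641 of the 1503 lower genes had every library with YAP5SA below, which is 5.22% and 3.83% of all genes tested. Called or not, 964 genes (5.75%) were apart upward and 676 (4.04%) downward. The split depended on scaling. With library totals in place of TMM, the median of all genes moved to 0.70 and the calls to 3944 higher and 70 lower, so falls below are falls relative to the bulk of genes. Leaving out Control 1, Control 2 and YAP5SA 3, the libraries richest in mitochondrial RNA, left 322 higher and 236 lower, and 525 of the 3248 calls remained. That fit has no Control library in batch 1 and no library with YAP5SA in batch 2. In the batch of the libraries with YAP5SA, only MEF2A 1 and 2 then stand without it. Without Control 1 and 2 alone, 2888 genes were called and 2031 of the 3248 calls remained. With the mitochondrial share of counts as a covariate, 3980 were called and 2695 remained. What ended the calls was not tested.

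The balance of calls changed with the mean level over the 14 libraries. Of the 642 genes at 200 CPM or more, 205 (31.9%) were lower and 57 (8.88%) higher. Of the 5085 genes from 10 to 50 CPM, 545 (10.7%) were lower and 726 (14.3%) higher. Below 0.5 CPM 6 of 1661 genes were lower and 84 higher, but a gene this low passes the filter on counts through the libraries where it is high, and nothing is read from that split. Of the 147 called genes picked by the rule for named genes, 86 lost the call without Control 1, Control 2 and YAP5SA 3, 46 with library totals, 38 without the YAP5SA_MEF2A libraries and 24 in batch 1 alone.

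**Figure D1:**
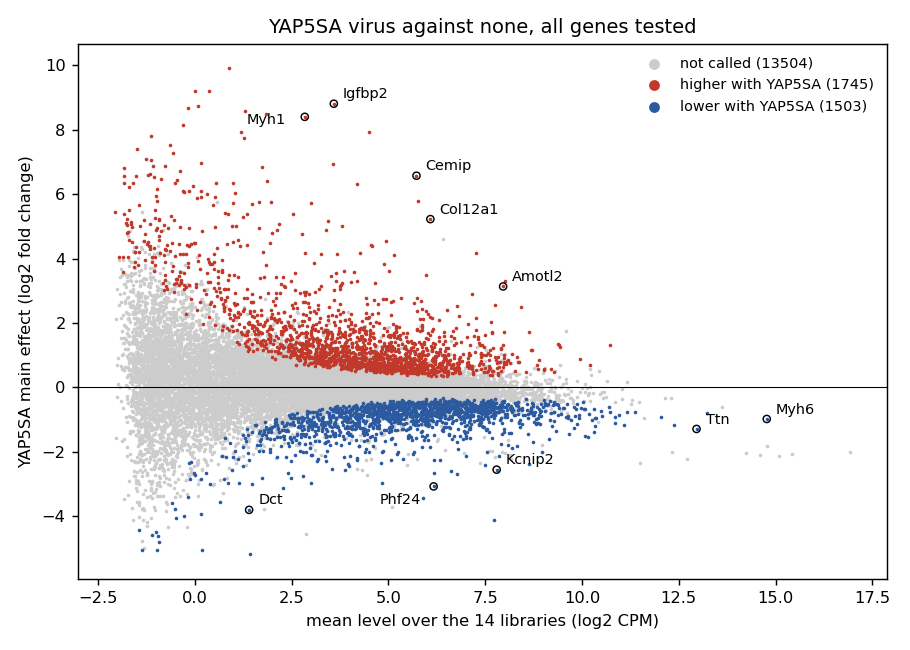
YAP5SA main effect (log2 fold change, vertical axis) against the mean level over the 14 libraries (log2 CPM, horizontal axis) for the 16752 genes tested; red points are the 1745 genes called higher, blue points the 1503 called lower and grey points those not called. The red points reach furthest from 0 at low levels and the blue points dominate at the highest levels, where Ttn and Myh6 lie.

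The mouse gene Yap1, which Gm20416 overlaps on the other strand, did not pass the test. It had 51.5, 75.8 and 39.5 CPM in YAP5SA 1, 2 and 3 and 69.8 and 78.98 CPM in YAP5SA_MEF2A 1 and 2, against 50.1 to 80.99 CPM (median 67.4) in the 9 libraries without YAP5SA, a log2 fold change of -0.23 ± 0.16 SE, edgeR adjusted p = 0.337. The groups overlapped. How far reads of the transgenes match the mouse genes was not examined, so these levels do not check the labels. Mef2a, one of the MEF2 transcription factors, had 391, 532 and 252 CPM in YAP5SA 1, 2 and 3 and 481 and 559 CPM in YAP5SA_MEF2A 1 and 2, against 509 to 621 CPM (median 577) in the 9 libraries without YAP5SA, and was called lower (log2 -0.48 ± 0.16 SE, edgeR adjusted p = 0.0403). The batch-centred groups overlapped, Lysmd4 overlaps Mef2a on the other strand of these libraries without strand information, and the call ended without YAP5SA 1, without YAP5SA 3 or without YAP5SA_MEF2A 1, while with library totals the sign turned to 0.21.

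Genes close to absent from these hearts without YAP5SA rose furthest, among them myosins of fast skeletal muscle. The 15 largest rises were taken only from genes whose batch-centred groups did not overlap. Their separation between groups was thus largely set by that choice and is description, not a result. Myh1, the heavy chain of type IIx fibres, had 8.07, 8.66 and 5.19 CPM in YAP5SA 1, 2 and 3 and 36.9 and 38.8 CPM in YAP5SA_MEF2A 1 and 2, against 0 to 0.380 CPM (median 0) in the 9 libraries without YAP5SA. Its neighbour Myh2, the heavy chain of type IIa fibres, had 42.4, 44.6 and 17.6 CPM in YAP5SA 1, 2 and 3 and 90.3 and 119.7 CPM in YAP5SA_MEF2A 1 and 2, against 0 to 1.02 CPM (median 0.101) in the 9 libraries without YAP5SA. Every library with YAP5SA stood above every library without, and both genes were highest in the YAP5SA_MEF2A libraries. Myh1 (chr11:67200052-67224575, plus strand, GRCm38) rose by log2 8.40 ± 0.56 SE, edgeR adjusted p = 4.9e-08, and Myh2 (chr11:67171027-67197517, plus strand) by log2 7.93 ± 0.86 SE, edgeR adjusted p = 1.0e-04. Mybph, a myosin binding protein of skeletal muscle, had 4.41, 2.93 and 6.59 CPM in YAP5SA 1, 2 and 3 and 15.5 and 13.5 CPM in YAP5SA_MEF2A 1 and 2, against 0 to 0.540 CPM (median 0) in the 9 libraries without YAP5SA (log2 6.84 ± 0.83 SE, edgeR adjusted p = 3.8e-05). Cdh15, the M-cadherin of skeletal muscle precursors, had 7.996, 2.32 and 9.26 CPM in YAP5SA 1, 2 and 3 and 4.74 and 5.69 CPM in YAP5SA_MEF2A 1 and 2, against 0 to 0.114 CPM (median 0) in the 9 libraries without YAP5SA (log2 7.92 ± 0.70 SE, edgeR adjusted p = 1.0e-06). For these 4 genes no library without YAP5SA reached the lowest library with it. Each myosin overlaps a transcript on the other strand, Mybph overlaps Adora1, and the myosin genes of this cluster are close copies, so how reads were divided among them is uncertain. Set against 7 counts in the 9 libraries without YAP5SA, the 2427 counts of Myh1 gave a ratio of 489 (95% exact interval 237 to 1218, counting error only). For Cdh15 706 counts stood against 3, a ratio of 332 (113 to 1614).

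The other large rises were in genes of several kinds. Igfbp2, a binding protein of insulin-like growth factors, had 43.3, 7.96 and 87.3 CPM in YAP5SA 1, 2 and 3 and 14.4 and 12.8 CPM in YAP5SA_MEF2A 1 and 2, against 0 to 0.945 CPM (median 0) in the 9 libraries without YAP5SA (log2 8.80 ± 0.91 SE, edgeR adjusted p = 5.5e-05). Cemip, which breaks down hyaluronan, had 295, 66.5 and 192 CPM in YAP5SA 1, 2 and 3 and 88.9 and 84.6 CPM in YAP5SA_MEF2A 1 and 2, against 0.0609 to 4.09 CPM (median 1.27) in the 9 libraries without YAP5SA (log2 6.57 ± 0.69 SE, edgeR adjusted p = 1.2e-04). Scel, sciellin of the cornified envelope of epithelia, had 109, 46.7 and 44.6 CPM in YAP5SA 1, 2 and 3 and 22.2 and 25.7 CPM in YAP5SA_MEF2A 1 and 2, against 0 to 2.10 CPM (median 0.374) in the 9 libraries without YAP5SA (log2 6.31 ± 0.49 SE, edgeR adjusted p = 1.7e-06). In all 3 genes YAP5SA 1 or YAP5SA 3 was the highest library, and no groups overlapped, for which these genes were in part picked. Nog, noggin, which binds and blocks bone morphogenetic proteins, had 9.13, 4.16 and 14.95 CPM in YAP5SA 1, 2 and 3 and 7.24 and 4.92 CPM in YAP5SA_MEF2A 1 and 2, against 0 to 0.788 CPM (median 0) in the 9 libraries without YAP5SA (log2 5.76 ± 0.80 SE, edgeR adjusted p = 1.8e-04). Sema3e, a secreted guidance cue, had 19.8, 5.77 and 8.91 CPM in YAP5SA 1, 2 and 3 and 8.17 and 4.24 CPM in YAP5SA_MEF2A 1 and 2, against 0 to 0.738 CPM (median 0) in the 9 libraries without YAP5SA (log2 6.39 ± 0.97 SE, edgeR adjusted p = 4.4e-04). Vnn1, a pantetheinase, had 3.47, 3.59 and 10.2 CPM in YAP5SA 1, 2 and 3 and 6.32 and 7.79 CPM in YAP5SA_MEF2A 1 and 2, against 0 to 0.346 CPM (median 0) in the 9 libraries without YAP5SA (log2 7.73 ± 0.89 SE, edgeR adjusted p = 1.8e-05). Lrtm2, a membrane protein with leucine-rich repeats, had 12.5, 5.42 and 11.4 CPM in YAP5SA 1, 2 and 3 and 9.98 and 8.07 CPM in YAP5SA_MEF2A 1 and 2, against 0 to 0.192 CPM (median 0) in the 9 libraries without YAP5SA (log2 8.47 ± 0.71 SE, edgeR adjusted p = 5.6e-07). All 4 stood at 1 CPM or less in each library without YAP5SA and above 3 CPM in each library with it.

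Tmprss2, a serine protease of the cell surface, and Serpinb9b, a protease inhibitor, rose by 6.04 ± 0.90 and 6.94 ± 0.77 on the log2 scale (SE; edgeR adjusted p = 2.1e-04 and 8.1e-05). Serpinb9b belongs to a cluster of close copies and overlaps Gm36099 on the other strand, so its level is uncertain. Peak1os, a transcript antisense to Peak1, had 12.9, 2.58 and 6.59 CPM in YAP5SA 1, 2 and 3 and 4.04 and 6.09 CPM in YAP5SA_MEF2A 1 and 2, with 2 counts in all in the 9 libraries without YAP5SA (log2 8.57 ± 0.73 SE, edgeR adjusted p = 6.1e-07). Its count ratio was 548 (95% exact interval 151 to 4536), and without strand its reads cannot be told apart from those of Peak1. The fitted changes of genes this low depend on the prior count used. The calls of Igfbp2, Serpinb9b, Cemip and Tmprss2 ended without Control 1, Control 2 and YAP5SA 3, and that of Igfbp2 also ended in DESeq2; those of the other 11 of the 15 largest rises passed in every alternative fit run.

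**Figure D2:**
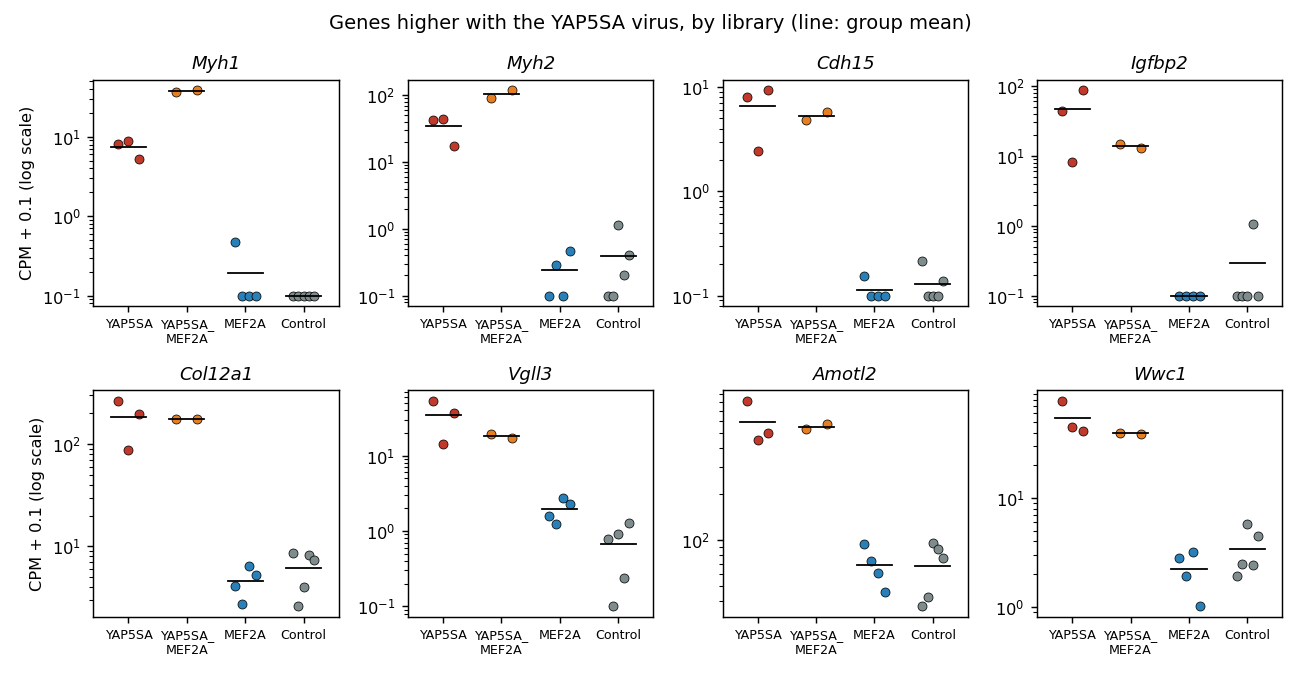
Levels by library of 8 genes called higher (vertical axes, CPM + 0.1 on a log scale), by group from left to right: YAP5SA (3 libraries), YAP5SA_MEF2A (2), MEF2A (4) and Control (5); points are libraries and lines are group means. In each panel the 5 libraries with YAP5SA lie above the 9 without, by the widest gap in Myh1, Myh2, Cdh15 and Igfbp2, which were picked in part for this separation.

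Most of the listed targets of YAP and TAZ rose. Of 21 listed targets tested, 13 were higher and 0 lower, with a median log2 fold change of 1.38 against 0.059 for all genes and the 10.4% called higher among them. Amotl2, a scaffold that binds YAP, had 818, 456 and 503 CPM in YAP5SA 1, 2 and 3 and 532 and 571 CPM in YAP5SA_MEF2A 1 and 2, against 36.8 to 95.8 CPM (median 73.02) in the 9 libraries without YAP5SA (log2 3.13 ± 0.26 SE, edgeR adjusted p = 1.6e-06). Ccn2, a secreted matrix-associated protein also called CTGF, had 549, 175 and 434 CPM in YAP5SA 1, 2 and 3 and 199.6 and 276 CPM in YAP5SA_MEF2A 1 and 2, against 21.1 to 62.96 CPM (median 37.8) in the 9 libraries without YAP5SA (log2 2.91 ± 0.30 SE, edgeR adjusted p = 2.0e-05). Tgfb2, a transforming growth factor, had 90.4, 32.5 and 62.8 CPM in YAP5SA 1, 2 and 3 and 42.6 and 53.8 CPM in YAP5SA_MEF2A 1 and 2, against 6.21 to 11.6 CPM (median 9.47) in the 9 libraries without YAP5SA (log2 2.60 ± 0.24 SE, edgeR adjusted p = 1.8e-06). In these 3 genes every library with YAP5SA exceeded every library without, and YAP5SA 1 was the highest. Crim1, a membrane protein that binds growth factors, rose by log2 2.62 ± 0.32 SE, edgeR adjusted p = 3.3e-05. The other 9 higher targets were Rbms3, Asap1, Ccn1, Nuak2, Nt5e, Myof, Lats2, Ankrd1 and Dock5.

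Genes that restrain or accompany YAP were among those higher. Of 20 Hippo kinases and scaffolds 6 (30.0%) were higher and 0 lower (median 0.23), against 10.4% of all genes called higher. Wwc1, the scaffold KIBRA that activates LATS, had 78.3, 44.8 and 41.5 CPM in YAP5SA 1, 2 and 3 and 39.8 and 38.5 CPM in YAP5SA_MEF2A 1 and 2, against 0.914 to 5.66 CPM (median 2.37) in the 9 libraries without YAP5SA (log2 4.16 ± 0.33 SE, edgeR adjusted p = 3.7e-07). Sav1, the scaffold of MST kinases, had 11.6, 12.9 and 13.2 CPM in YAP5SA 1, 2 and 3 and 13.5 and 12.995 CPM in YAP5SA_MEF2A 1 and 2, against 1.60 to 8.34 CPM (median 3.20) in the 9 libraries without YAP5SA (log2 1.70 ± 0.37 SE, edgeR adjusted p = 0.00414). Lats2, a kinase that phosphorylates YAP, had 65.9, 54.2 and 37.6 CPM in YAP5SA 1, 2 and 3 and 59.6 and 71.5 CPM in YAP5SA_MEF2A 1 and 2, against 21.4 to 41.1 CPM (median 35.9) in the 9 libraries without YAP5SA (log2 0.67 ± 0.17 SE, edgeR adjusted p = 0.00962). The levels of Wwc1 and Sav1 did not overlap between groups, and those of Lats2 did. Stk4, Mob1b and Amotl2 were also higher. Amotl2 and Lats2 were already counted among the higher targets of YAP and TAZ, so these lists are not independent. Of 8 genes for YAP, TAZ, TEADs and their cofactors, 4 were higher (median 0.61). Vgll3, a TEAD cofactor, had 53.4, 14.3 and 37.1 CPM in YAP5SA 1, 2 and 3 and 19.03 and 17.03 CPM in YAP5SA_MEF2A 1 and 2, against 0 to 2.64 CPM (median 1.12) in the 9 libraries without YAP5SA (log2 5.17 ± 0.63 SE, edgeR adjusted p = 1.1e-04). Its relative Vgll4, which competes with YAP for TEADs, rose by log2 1.88 ± 0.40 SE, edgeR adjusted p = 0.00346, Tead4 by log2 1.69 ± 0.32 SE, edgeR adjusted p = 0.00153 and Tead1 by log2 0.61 ± 0.15 SE, edgeR adjusted p = 0.00850. Tead1 was the most abundant of these 4 genes, at 241 to 383 CPM with YAP5SA and 146 to 226 CPM without, with no overlap. The calls of Sav1, Lats2, Vgll4 and Tead1 ended without the YAP5SA_MEF2A libraries. Both lists were chosen for this pathway with earlier results of these data known.

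Promoter windows from RefSeq (250 bases before to 50 after a gene's start, GRCm38.p6) were searched on both strands for GGAATG, the core of the motif bound by TEADs, which reads CATTCC on the other strand, and for the AP-1 motif TGANTCA. The first was in 14.6% of 1711 windows of higher genes, 11.3% of 1486 windows of lower genes and 12.7% of 15051 windows of all genes tested. The second was in 6.14%, 4.71% and 5.50% of those windows. Of the 15 largest rises 12 had a window and 3 of these, Myh1, Mybph and Tmprss2, held the TEAD core; the windows of Igfbp2, Peak1os, Lrtm2, Myh2, Cdh15, Serpinb9b, Cemip, Sema3e and Scel held none. The 4 windows below were picked because they hold the core, in capitals where it stands, to show where it lies; they do not represent the genes that rose. The window of Myh1 also holds 1 match to the AP-1 motif, which does not overlap the TEAD core and is left in lower case. A match describes the letters only, and binding was not measured.
Myh1 promoter (chr11:67199852-67200151, plus strand): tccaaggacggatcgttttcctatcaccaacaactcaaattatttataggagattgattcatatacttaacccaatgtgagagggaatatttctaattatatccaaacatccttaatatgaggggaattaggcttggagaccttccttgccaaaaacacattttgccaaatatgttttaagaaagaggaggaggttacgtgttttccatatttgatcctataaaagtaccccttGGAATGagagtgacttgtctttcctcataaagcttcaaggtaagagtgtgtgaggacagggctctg
Mybph promoter (chr1:134193198-134193497, plus strand): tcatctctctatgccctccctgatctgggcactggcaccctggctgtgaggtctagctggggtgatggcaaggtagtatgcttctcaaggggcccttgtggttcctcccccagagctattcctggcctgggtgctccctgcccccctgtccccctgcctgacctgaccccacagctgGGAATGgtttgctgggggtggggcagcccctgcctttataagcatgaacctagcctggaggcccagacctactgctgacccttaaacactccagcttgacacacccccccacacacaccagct
Amotl2 promoter (chr9:102717554-102717853, plus strand): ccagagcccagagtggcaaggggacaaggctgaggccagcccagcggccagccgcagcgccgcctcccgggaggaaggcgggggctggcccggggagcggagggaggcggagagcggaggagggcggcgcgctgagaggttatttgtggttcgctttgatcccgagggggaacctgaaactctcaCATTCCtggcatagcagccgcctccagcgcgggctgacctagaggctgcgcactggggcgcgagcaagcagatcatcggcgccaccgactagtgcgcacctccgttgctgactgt
Vgll3 promoter (chr16:65814939-65815238, plus strand): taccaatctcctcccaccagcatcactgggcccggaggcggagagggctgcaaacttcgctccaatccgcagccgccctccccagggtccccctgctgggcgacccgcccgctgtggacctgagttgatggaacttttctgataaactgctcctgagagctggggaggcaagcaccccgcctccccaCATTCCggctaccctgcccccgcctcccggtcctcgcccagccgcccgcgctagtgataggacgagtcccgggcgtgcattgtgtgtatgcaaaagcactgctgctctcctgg

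Of 13 immediate early genes tested, which include the AP-1 subunits, 4 (30.8%) were higher and none was lower, against 10.4% of all genes called higher. Their median was 1.25, and 0.94 in batch 1. Ier3, a regulator of cell survival, had 60.1, 17.3 and 32.4 CPM in YAP5SA 1, 2 and 3 and 27.3 and 22.6 CPM in YAP5SA_MEF2A 1 and 2, against 5.34 to 11.3 CPM (median 9.19) in the 9 libraries without YAP5SA (log2 1.80 ± 0.27 SE, edgeR adjusted p = 2.6e-04). Fos had 51.3, 15.05 and 29.9 CPM in YAP5SA 1, 2 and 3 and 18.2 and 27.7 CPM in YAP5SA_MEF2A 1 and 2, against 2.12 to 19.2 CPM (median 6.85) in the 9 libraries without YAP5SA (log2 1.62 ± 0.43 SE, edgeR adjusted p = 0.0172), and the groups overlapped. Junb rose by log2 1.72 ± 0.47 SE, edgeR adjusted p = 0.0203 and overlaps Prdx2 on the other strand. Myc, a growth-promoting transcription factor, rose by log2 2.21 ± 0.71 SE, edgeR adjusted p = 0.0460. The calls of Fos, Junb and Myc ended without YAP5SA 3, and that of Myc without any of 10 libraries taken singly.

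Of 39 genes of the actin cytoskeleton and focal adhesions 19 (48.7%) were higher and 1 was lower, against 10.4% of all genes called higher, with a median of 0.90. The other 19 did not pass the test. Tns3, a tensin of focal adhesions, had 321, 184 and 221 CPM in YAP5SA 1, 2 and 3 and 201 and 199.9 CPM in YAP5SA_MEF2A 1 and 2, against 24.4 to 75.7 CPM (median 42.01) in the 9 libraries without YAP5SA (log2 2.51 ± 0.21 SE, edgeR adjusted p = 6.3e-07). Myh9, the heavy chain of nonmuscle myosin IIA, had 734, 280.2 and 529 CPM in YAP5SA 1, 2 and 3 and 385 and 378 CPM in YAP5SA_MEF2A 1 and 2, against 105 to 166 CPM (median 145) in the 9 libraries without YAP5SA (log2 1.73 ± 0.19 SE, edgeR adjusted p = 1.5e-05). Neither gene's groups overlapped, and YAP5SA 1 was highest in both. Cnn2, a calponin, rose by log2 1.98 ± 0.20 SE, edgeR adjusted p = 4.6e-06 and Cald1, caldesmon, by log2 1.74 ± 0.19 SE, edgeR adjusted p = 8.6e-06. Vcl, vinculin, which links actin to adhesions and to the intercalated disc, had 27.97, 9.76 and 31.9 CPM in YAP5SA 1, 2 and 3 and 18.7 and 19.1 CPM in YAP5SA_MEF2A 1 and 2, against 2.44 to 11.6 CPM (median 4.05) in the 9 libraries without YAP5SA (log2 2.11 ± 0.34 SE, edgeR adjusted p = 4.8e-04), with Control 2 inside the range of the libraries with YAP5SA. Actb, a cytoplasmic actin, was among the higher genes and Actg1, the other cytoplasmic actin, was the single lower one.

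Matrix genes rose in part of their list. Of 36 tested 15 (41.7%) were higher and 2 (5.56%) lower, against 10.4% and 8.97% of all genes. The median was 0.64, and 0.33 in batch 1 against 1.13 in batch 2, and 5 of the higher genes were chains of type IV collagen. Col12a1, a fibril-associated collagen, had 265, 87.7 and 195 CPM in YAP5SA 1, 2 and 3 and 174 and 177 CPM in YAP5SA_MEF2A 1 and 2, against 2.50 to 8.44 CPM (median 5.18) in the 9 libraries without YAP5SA (log2 5.22 ± 0.33 SE, edgeR adjusted p = 1.9e-07). Col4a3 had 234, 111 and 209 CPM in YAP5SA 1, 2 and 3 and 97.5 and 86.5 CPM in YAP5SA_MEF2A 1 and 2, against 0 to 4.69 CPM (median 3.27) in the 9 libraries without YAP5SA (log2 5.79 ± 0.54 SE, edgeR adjusted p = 3.3e-05). Col4a4, which shares a promoter region with Col4a3 on the opposite strand, had 686, 325 and 502 CPM in YAP5SA 1, 2 and 3 and 236 and 219 CPM in YAP5SA_MEF2A 1 and 2, against 11.2 to 27.1 CPM (median 21.02) in the 9 libraries without YAP5SA (log2 4.17 ± 0.28 SE, edgeR adjusted p = 2.4e-07). Col4a5, the third chain of the same basement membrane network, had 318, 241 and 322 CPM in YAP5SA 1, 2 and 3 and 243 and 228 CPM in YAP5SA_MEF2A 1 and 2, against 116 to 163 CPM (median 133) in the 9 libraries without YAP5SA (log2 1.003 ± 0.13 SE, edgeR adjusted p = 7.4e-05). No library without YAP5SA reached the libraries with it in any of these 4 genes. The chains with the largest rises, Col4a3 (chr1:82586921-82722059) and Col4a4 (chr1:82448423-82586849), are neighbours in the genome, and Col4a3 overlaps C430014B12Rik on the other strand. Col4a1 and Col4a2, the chains found in most basement membranes, were also higher. The 2 lower genes were laminin chains, Lama4 and Lama2.

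Among 42 growth factor ligands and receptors, 8 (19.0%) were higher and 2 (4.76%) lower (median 0.38), against 10.4% and 8.97% of all genes. Tgfb3 had 193, 52.1 and 152 CPM in YAP5SA 1, 2 and 3 and 77.9 and 73.6 CPM in YAP5SA_MEF2A 1 and 2, against 10.8 to 22.7 CPM (median 17.9) in the 9 libraries without YAP5SA (log2 2.61 ± 0.29 SE, edgeR adjusted p = 3.9e-05). Fzd2, a Wnt receptor, rose by log2 1.78 ± 0.35 SE, edgeR adjusted p = 0.00226 and Bmp4, the ligand that noggin blocks, by log2 0.66 ± 0.16 SE, edgeR adjusted p = 0.00943. Both calls ended without the YAP5SA_MEF2A libraries. Notch1, Notch2, Tgfb1 and Igf1r were also higher, and Met and Insr, receptors for hepatocyte growth factor and insulin, were lower.

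The largest falls were in genes of diverse functions. The 15 largest falls, too, were taken only from genes whose batch-centred groups did not overlap, so their separation was largely set by that choice. Phf24, a PHD finger protein, had 15.6, 9.58 and 7.05 CPM in YAP5SA 1, 2 and 3 and 14.2 and 18.04 CPM in YAP5SA_MEF2A 1 and 2, against 74.1 to 138 CPM (median 105) in the 9 libraries without YAP5SA (log2 -3.08 ± 0.25 SE, edgeR adjusted p = 3.8e-07). Dct, an enzyme of melanin synthesis, had 0.195, 0.0437 and 0 CPM in YAP5SA 1, 2 and 3 and 0.347 and 0.848 CPM in YAP5SA_MEF2A 1 and 2, against 1.37 to 7.92 CPM (median 3.19) in the 9 libraries without YAP5SA (log2 -3.80 ± 0.66 SE, edgeR adjusted p = 8.2e-04). Rnft2, a ring finger protein, had 1.68, 6.999 and 4.83 CPM in YAP5SA 1, 2 and 3 and 6.82 and 5.17 CPM in YAP5SA_MEF2A 1 and 2, against 23.99 to 67.05 CPM (median 36.5) in the 9 libraries without YAP5SA (log2 -2.96 ± 0.38 SE, edgeR adjusted p = 1.0e-04). The highest library with YAP5SA was below the lowest without in all 3 genes. Rxfp1, the receptor of relaxin, had 12.9, 26.7 and 3.93 CPM in YAP5SA 1, 2 and 3 and 22.998 and 30.8 CPM in YAP5SA_MEF2A 1 and 2, against 48.8 to 159 CPM (median 95.3) in the 9 libraries without YAP5SA (log2 -2.66 ± 0.48 SE, edgeR adjusted p = 0.00236). Kcnip2, the auxiliary subunit KChIP2 of the channels of the transient outward potassium current, had 14.3, 91.7 and 6.70 CPM in YAP5SA 1, 2 and 3 and 74.3 and 116 CPM in YAP5SA_MEF2A 1 and 2, against 172 to 501 CPM (median 303) in the 9 libraries without YAP5SA (log2 -2.56 ± 0.60 SE, edgeR adjusted p = 0.0122). Tnnt1, the troponin T of slow skeletal muscle and of the fetal heart, had 27.7, 58.9 and 23.9 CPM in YAP5SA 1, 2 and 3 and 42.2 and 48.2 CPM in YAP5SA_MEF2A 1 and 2, against 133 to 228 CPM (median 169.7) in the 9 libraries without YAP5SA (log2 -2.13 ± 0.24 SE, edgeR adjusted p = 1.5e-05). These groups did not overlap either, and YAP5SA 3 was the lowest library in all 3.

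Srrm4, a splicing regulator known from neurons, fell by 2.67 ± 0.57 on the log2 scale (SE; edgeR adjusted p = 0.00373). Syt7, a calcium sensor of membrane fusion, fell by 2.42 ± 0.39 (adjusted p = 8.2e-04), and both genes overlap another on the opposite strand. Slc36a2, a transporter of small amino acids, fell by 2.27 ± 0.54 (adjusted p = 0.0124). Doc2g, Ttc39a, Fam19a3, Prr29, Platr32 and Zfp775 completed the 15 largest falls, with log2 fold changes from -2.38 to -2.17. Without Control 1, Control 2 and YAP5SA 3 the calls of Srrm4, Kcnip2, Doc2g, Slc36a2, Prr29 and Platr32 ended, and those of Kcnip2 and Doc2g also ended without the YAP5SA_MEF2A libraries. Slc36a2 and Prr29 were not called with library totals, nor Slc36a2 in batch 1 alone.

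**Figure D3:**
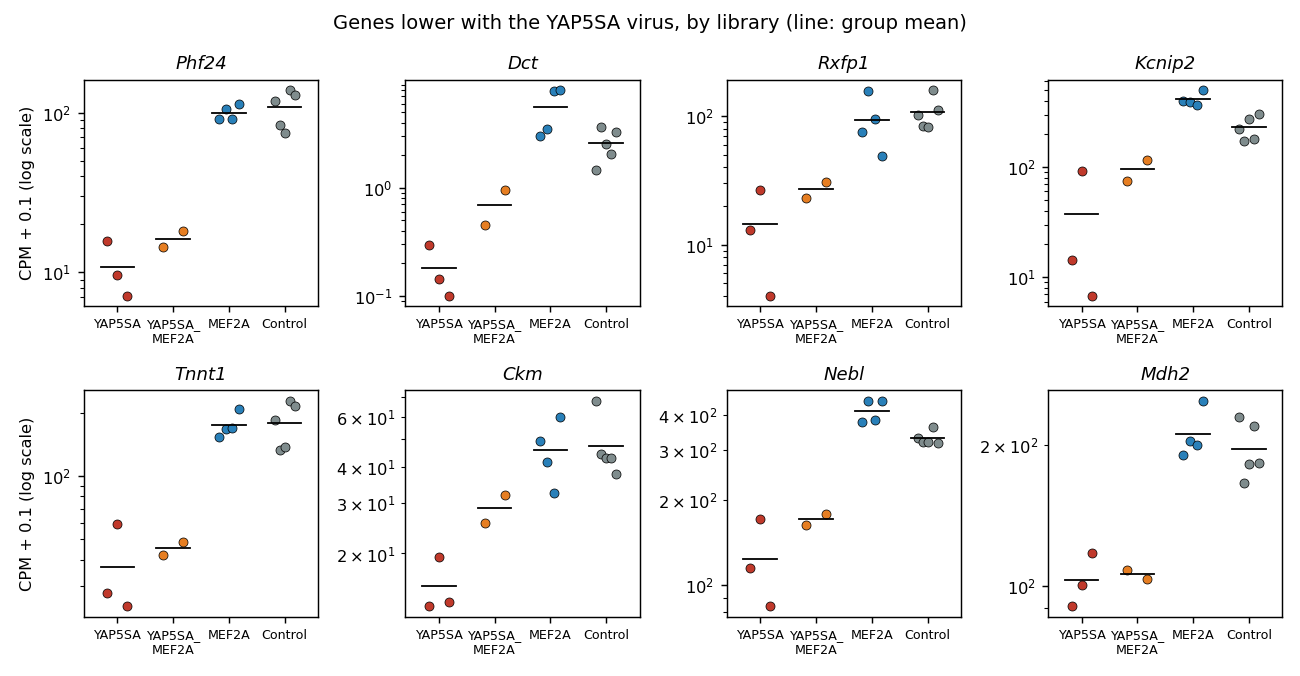
Levels by library of 8 genes called lower (vertical axes, CPM + 0.1 on a log scale), by group from left to right: YAP5SA (3 libraries), YAP5SA_MEF2A (2), MEF2A (4) and Control (5); points are libraries and lines are group means. The 5 libraries with YAP5SA lie below the 9 without in every panel, with the YAP5SA libraries spread most widely in Kcnip2. Phf24, Dct, Rxfp1, Kcnip2 and Tnnt1 were picked in part for this separation.

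Of 25 sarcomere genes of the mature heart 11 (44.0%) were lower and none was higher, against 8.97% of all genes called lower. The other 14 did not pass the test, and the median was -0.59 against 0.059 for all genes. Ttn, titin, the spring that spans the sarcomere from Z-disc to M-line, had 3177, 4341 and 2329 CPM in YAP5SA 1, 2 and 3 and 5278 and 7004 CPM in YAP5SA_MEF2A 1 and 2, against 6707 to 12877 CPM (median 10223) in the 9 libraries without YAP5SA (log2 -1.29 ± 0.23 SE, edgeR adjusted p = 0.00110). Myh6, the adult ventricular myosin heavy chain of the mouse, had 15212, 14463 and 13826 CPM in YAP5SA 1, 2 and 3 and 16882 and 18505 CPM in YAP5SA_MEF2A 1 and 2, against 18754 to 47430.1 CPM (median 37691) in the 9 libraries without YAP5SA (log2 -0.98 ± 0.21 SE, edgeR adjusted p = 0.00419). Nebl, a Z-disc protein, had 115, 170.4 and 84.02 CPM in YAP5SA 1, 2 and 3 and 164 and 178 CPM in YAP5SA_MEF2A 1 and 2, against 317 to 448 CPM (median 362) in the 9 libraries without YAP5SA (log2 -1.43 ± 0.16 SE, edgeR adjusted p = 1.5e-05). YAP5SA_MEF2A 2 lay within the range of libraries without YAP5SA for Ttn, and the groups did not overlap for Myh6 or Nebl. Cmya5, myospryn, fell by 1.15 ± 0.20 (log2, SE; edgeR adjusted p = 6.7e-04). Tnni3, cardiac troponin I, had 690.5, 1684 and 854 CPM in YAP5SA 1, 2 and 3 and 1378 and 1339.7 CPM in YAP5SA_MEF2A 1 and 2, against 1919 to 3886 CPM (median 2824) in the 9 libraries without YAP5SA (log2 -1.18 ± 0.22 SE, edgeR adjusted p = 0.00131). The call of Myh6 ended without the YAP5SA_MEF2A libraries, and with library totals no sarcomere gene was called lower, while the list's median stayed below that of all genes (0.04 against 0.70). In bulk RNA of nuclei, fewer nuclei of a type and less RNA per nucleus cannot be told apart.

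Of 15 fetal and stress genes of the heart 4 (26.7%) were higher and 2 (13.3%) lower (median 0.34), against 10.4% and 8.97% of all genes. Ankrd2, a titin-binding protein of stretched muscle, had 26.1, 8.14 and 19.8 CPM in YAP5SA 1, 2 and 3 and 4.97 and 5.57 CPM in YAP5SA_MEF2A 1 and 2, against 0 to 2.50 CPM (median 1.58) in the 9 libraries without YAP5SA (log2 3.31 ± 0.60 SE, edgeR adjusted p = 0.00138). Acta2, smooth muscle actin, had 862, 149.6 and 672 CPM in YAP5SA 1, 2 and 3 and 295 and 296 CPM in YAP5SA_MEF2A 1 and 2, against 46.9 to 199.5 CPM (median 68.9) in the 9 libraries without YAP5SA (log2 2.56 ± 0.45 SE, edgeR adjusted p = 0.00245). Ankrd1, a relative of Ankrd2 and a YAP target, had 4829, 1955 and 2439 CPM in YAP5SA 1, 2 and 3 and 1885 and 2455 CPM in YAP5SA_MEF2A 1 and 2, against 422 to 2606 CPM (median 909.8) in the 9 libraries without YAP5SA (log2 1.33 ± 0.36 SE, edgeR adjusted p = 0.0205). Ankrd2 did not overlap between groups, whereas MEF2A 4 for Acta2 and Control 3 for Ankrd1 reached the libraries with YAP5SA. The calls of Ankrd2 and Acta2 ended without Control 1, Control 2 and YAP5SA 3 together, and that of Ankrd2 also in batch 1 alone. The call of Ankrd1 ended without Control 1, without Control 2 or without YAP5SA_MEF2A 2. Nppb, which encodes a natriuretic peptide, was also higher, and Tnnt1 and Xirp2 were lower.

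Of 30 calcium handling and ion channel genes 11 (36.7%) were lower and 2 (6.67%) higher, against 8.97% and 10.4% of all genes, with a median of -0.40. Kcnk3, a background potassium channel, had 11.2, 12.5 and 16.2 CPM in YAP5SA 1, 2 and 3 and 14.6 and 19.05 CPM in YAP5SA_MEF2A 1 and 2, against 28.8 to 68.2 CPM (median 41.5) in the 9 libraries without YAP5SA (log2 -1.59 ± 0.21 SE, edgeR adjusted p = 7.2e-05). Asph, whose locus also makes the calcium-handling protein junctin, fell by 1.15 ± 0.16 (log2, SE; edgeR adjusted p = 1.0e-04), and Casq2, the calcium store protein calsequestrin, by 0.76 ± 0.14 (adjusted p = 0.00119). Cacna1c, Trdn, Hrc, Kcnh2, Kcnd2 and Kcnd3 were lower as well. Atp1b1, a beta subunit of the sodium pump, was among the higher genes. At the intercalated disc 4 of 20 genes were higher, among them Cdh2, N-cadherin (log2 0.83 ± 0.16 SE, edgeR adjusted p = 0.00140), and Gja1, the main connexin of the ventricle (log2 0.66 ± 0.17 SE, edgeR adjusted p = 0.0121), and 4 were lower, led by Ank2, ankyrin B (log2 -1.11 ± 0.17 SE, edgeR adjusted p = 2.1e-04). This list had 20% called in each direction and a median of -0.16, and the call of Gja1 ended without YAP5SA 3. Of 20 cardiac transcription factors 2 (10%) were higher and 3 (15%) lower, near the 10.4% and 8.97% of all genes, and the median was 0.071. Hand2 had 79.2, 24.4 and 46.1 CPM in YAP5SA 1, 2 and 3 and 40.99 and 52.1 CPM in YAP5SA_MEF2A 1 and 2, against 10.7 to 26.9 CPM (median 17.9) in the 9 libraries without YAP5SA (log2 1.37 ± 0.29 SE, edgeR adjusted p = 0.00382), and Meis1, which restrains the cell cycle of cardiomyocytes, rose by log2 0.67 ± 0.14 SE, edgeR adjusted p = 0.00380. The estrogen-related receptor Esrra, a regulator of mitochondrial genes, had 135, 272 and 127 CPM in YAP5SA 1, 2 and 3 and 233 and 224 CPM in YAP5SA_MEF2A 1 and 2, against 342 to 479 CPM (median 411) in the 9 libraries without YAP5SA (log2 -1.12 ± 0.19 SE, edgeR adjusted p = 5.8e-04), with no overlap.

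Most genes of muscle energy supply fell. Of 12 creatine kinase and energy shuttle genes 9 (75.0%) were lower and 1 (8.33%) was higher, against 8.97% and 10.4% of all genes, with a median of -0.69. Eno3, muscle enolase, had 284, 730.0 and 309.6 CPM in YAP5SA 1, 2 and 3 and 624 and 625 CPM in YAP5SA_MEF2A 1 and 2, against 1097 to 1813 CPM (median 1390.5) in the 9 libraries without YAP5SA (log2 -1.50 ± 0.22 SE, edgeR adjusted p = 1.8e-04). Ckm, the cytosolic muscle creatine kinase, had 12.99, 19.4 and 13.4 CPM in YAP5SA 1, 2 and 3 and 25.5 and 31.8 CPM in YAP5SA_MEF2A 1 and 2, against 32.5 to 68.1 CPM (median 42.9) in the 9 libraries without YAP5SA (log2 -1.32 ± 0.22 SE, edgeR adjusted p = 6.3e-04). Ckmt2, its mitochondrial counterpart, had 82.7, 137 and 186 CPM in YAP5SA 1, 2 and 3 and 122 and 122 CPM in YAP5SA_MEF2A 1 and 2, against 235 to 409 CPM (median 317) in the 9 libraries without YAP5SA (log2 -1.29 ± 0.19 SE, edgeR adjusted p = 2.0e-04). The groups were apart in all 3 genes, with YAP5SA 1 the lowest library in each. Ckm overlaps a gene on the other strand, as does Ckmt2. With library totals none of these 3 genes was called, and the call of Ckm also ended without Control 1, Control 2 and YAP5SA 3. Eno3 is also counted in the list of glycolysis genes below.

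Of 29 genes of fatty acid uptake and oxidation 7 (24.1%) were lower and none was higher (median -0.59), against 8.97% of all genes called lower. Acacb, whose product limits entry of fatty acids into mitochondria, had 331, 579 and 191 CPM in YAP5SA 1, 2 and 3 and 625 and 659 CPM in YAP5SA_MEF2A 1 and 2, against 789 to 1716 CPM (median 1019) in the 9 libraries without YAP5SA (log2 -1.27 ± 0.29 SE, edgeR adjusted p = 0.00567). No library with YAP5SA reached the others. Etfa, which passes electrons from fatty acid oxidation to the respiratory chain, had 34.3, 45.01 and 37.1 CPM in YAP5SA 1, 2 and 3 and 44.5 and 46.3 CPM in YAP5SA_MEF2A 1 and 2, against 54.8 to 103 CPM (median 77.5) in the 9 libraries without YAP5SA (log2 -0.80 ± 0.16 SE, edgeR adjusted p = 0.00205). Hadhb, a subunit of the trifunctional protein of the same pathway, fell by 0.85 ± 0.22 (log2, SE; edgeR adjusted p = 0.0114), and this call ended without YAP5SA 3. Fabp3, the fatty acid binding protein of the heart, fell by 0.72 ± 0.17 (edgeR adjusted p = 0.00790), with overlapping groups. With library totals the calls of Acacb, Etfa, Hadhb and Fabp3 ended. Those of Acacb, Hadhb and Fabp3 also ended without Control 1, Control 2 and YAP5SA 3, and that of Fabp3 in batch 1 alone.

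Of 29 genes of the TCA cycle and pyruvate entry 13 (44.8%) were lower, against 8.97% of all genes, and 1, Pdha1, was higher (median -0.49). Mdh2, mitochondrial malate dehydrogenase, had 90.5, 101 and 118 CPM in YAP5SA 1, 2 and 3 and 108 and 104 CPM in YAP5SA_MEF2A 1 and 2, against 165 to 248 CPM (median 199.9) in the 9 libraries without YAP5SA (log2 -0.91 ± 0.13 SE, edgeR adjusted p = 1.5e-04). Fh1, fumarase, had 55.5, 72.7 and 48.6 CPM in YAP5SA 1, 2 and 3 and 53.9 and 50.5 CPM in YAP5SA_MEF2A 1 and 2, against 86.7 to 123 CPM (median 109.7) in the 9 libraries without YAP5SA (log2 -0.96 ± 0.15 SE, edgeR adjusted p = 3.4e-04). Ogdh, of the oxoglutarate dehydrogenase complex, had 272, 249 and 233 CPM in YAP5SA 1, 2 and 3 and 263 and 284 CPM in YAP5SA_MEF2A 1 and 2, against 361 to 540.0 CPM (median 478) in the 9 libraries without YAP5SA (log2 -0.80 ± 0.13 SE, edgeR adjusted p = 3.6e-04). None of these 3 overlapped between groups. They remained called without Control 1, Control 2 and YAP5SA 3 but not with library totals. Without these 3 libraries 4 genes of the list were lower, and the median was -0.49.

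Nuclear genes of respiratory complex I had 9 (25.0%) lower and 1 higher of 36 (median -0.33). Those of complexes III to V had 6 (17.1%) lower and 0 higher of 35 (median -0.26). Of all genes 8.97% were called lower. Ndufs8 had 25.5, 33.2 and 33.9 CPM in YAP5SA 1, 2 and 3 and 27.97 and 26.8 CPM in YAP5SA_MEF2A 1 and 2, against 54.7 to 80.98 CPM (median 61.1) in the 9 libraries without YAP5SA (log2 -1.07 ± 0.15 SE, edgeR adjusted p = 1.0e-04). Ndufv1, which binds NADH, had 184, 321 and 188 CPM in YAP5SA 1, 2 and 3 and 292 and 296 CPM in YAP5SA_MEF2A 1 and 2, against 422 to 671 CPM (median 551) in the 9 libraries without YAP5SA (log2 -1.08 ± 0.17 SE, edgeR adjusted p = 3.2e-04). The groups did not overlap in either gene. Ndufb10 and Ndufv2 fell by 0.93 ± 0.15 and 1.02 ± 0.17 (log2, SE; edgeR adjusted p = 4.4e-04 and 5.2e-04). Of the ATP synthase and complex III, Atp5h fell by 0.84 ± 0.13 and Uqcrc1 by 0.77 ± 0.14 (adjusted p = 2.9e-04 and 0.00135). Uqcrc2 (-0.64) and Atp5b (-0.53) were called lower, but with library totals their signs turned. The calls of the other respiratory genes named here ended with library totals too. Those of Ndufv2, Atp5h, Uqcrc1, Uqcrc2 and Atp5b also ended without Control 1, Control 2 and YAP5SA 3. Without Control 1 and 2 the medians of both lists turned positive (0.20 and 0.15), with 8 complex I genes lower and 4 higher, and 5 genes of the other list lower and 2 higher. In batch 2, which holds YAP5SA 3 alone with the virus, they were also positive (0.49 and 0.43).

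None of 13 mitochondrially encoded genes was called by edgeR or limma-voom, 4 had an unadjusted p below 0.05 in edgeR and DESeq2 called 3 lower, and their median was -2.04. mt-Co1, of cytochrome c oxidase, had 12943, 23532 and 126537 CPM in YAP5SA 1, 2 and 3 and 20843 and 18314 CPM in YAP5SA_MEF2A 1 and 2, against 19932 to 644917 CPM (median 68404) in the 9 libraries without YAP5SA (log2 -2.001 ± 0.97 SE, edgeR adjusted p = 0.180). The highest values were in Control 1, Control 2 and YAP5SA 3, and the groups overlapped. The median was 0.052 without Control 1 and 2, -3.48 in batch 1 and 1.98 in batch 2. Of 16 regulators of mitochondrial biogenesis 4 (25.0%) were lower and 1 (6.25%) higher, against 8.97% and 10.4% of all genes. The lower ones were Esrra, its relative Esrrg (log2 -1.03 ± 0.26 SE, edgeR adjusted p = 0.00990), the co-activator Ppargc1b and Gabpa. The call of Ppargc1b ended without YAP5SA 3 or YAP5SA_MEF2A 1. The higher one was the mitochondrial DNA polymerase gene Polg (log2 0.85 ± 0.14 SE, edgeR adjusted p = 4.9e-04).

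Glycolysis was mixed. Of 30 genes of glycolysis, glycogen and lactate 8 (26.7%) were lower and 2 (6.67%) higher (median -0.20), against 8.97% and 10.4% of all genes. The lower ones were led by forms typical of muscle. Ldhb, the heart-type lactate dehydrogenase subunit, had 80.1, 109 and 69.1 CPM in YAP5SA 1, 2 and 3 and 92.7 and 87.5 CPM in YAP5SA_MEF2A 1 and 2, against 127 to 296 CPM (median 197) in the 9 libraries without YAP5SA (log2 -1.17 ± 0.21 SE, edgeR adjusted p = 8.9e-04). Pfkm, muscle phosphofructokinase, had 323, 648 and 339.8 CPM in YAP5SA 1, 2 and 3 and 593 and 597 CPM in YAP5SA_MEF2A 1 and 2, against 656 to 1348 CPM (median 1025) in the 9 libraries without YAP5SA (log2 -1.03 ± 0.21 SE, edgeR adjusted p = 0.00259). Both genes stood apart between groups, with Control 2 the closest library without YAP5SA for Pfkm. Pgam2, the muscle phosphoglycerate mutase, fell by 0.81 ± 0.16 (log2, SE; edgeR adjusted p = 0.00182). The calls of Ldhb, Pfkm and Pgam2 ended with library totals, and also without Control 1, Control 2 and YAP5SA 3. The 2 higher genes were Slc2a1, the glucose transporter GLUT1 of growing cells, and Pgam1, the form of the mutase found outside muscle. No gene of the pentose phosphate pathway was called among 7 by edgeR, DESeq2 or limma-voom, and 1 had an unadjusted p below 0.05 in edgeR (median -0.029). Tkt was at -0.19 ± 0.20 and Pgd at -0.029 ± 0.13 (log2, SE).

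Of 32 genes of serine, one-carbon and nucleotide synthesis 9 (28.1%) were higher, against 10.4% of all genes, and 1, Psph, was lower (median 0.37). Slc7a5, a transporter of large neutral amino acids, had 27.8, 7.44 and 25.3 CPM in YAP5SA 1, 2 and 3 and 9.90 and 10.9 CPM in YAP5SA_MEF2A 1 and 2, against 0.615 to 4.60 CPM (median 1.89) in the 9 libraries without YAP5SA (log2 2.87 ± 0.38 SE, edgeR adjusted p = 7.2e-05). Psat1, of serine synthesis, had 69.2, 38.2 and 34.7 CPM in YAP5SA 1, 2 and 3 and 34.7 and 32.1 CPM in YAP5SA_MEF2A 1 and 2, against 5.42 to 19.1 CPM (median 14.3) in the 9 libraries without YAP5SA (log2 1.74 ± 0.22 SE, edgeR adjusted p = 5.4e-05). Libraries with YAP5SA were above all others in both genes. Without YAP5SA, Psat1 was lower in the 4 MEF2A libraries (5.42 to 9.62 CPM) than in the 5 Control libraries (14.3 to 19.1 CPM). Mthfd1l, a mitochondrial folate enzyme, rose by log2 2.41 ± 0.53 SE, edgeR adjusted p = 0.00425. Rrm1 and Rrm2, the subunits of ribonucleotide reductase, Atic, Impdh1 and Prps1 were also higher.

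Of 17 genes of the ATF4 integrated stress response 6 (35.3%) were higher and 1 (5.88%) lower, against 10.4% and 8.97% of all genes. The median was 0.87, and 0.36 in batch 1 against 1.37 in batch 2. Atf4, its transcription factor, had 167, 76.9 and 123 CPM in YAP5SA 1, 2 and 3 and 103 and 95.7 CPM in YAP5SA_MEF2A 1 and 2, against 39.03 to 72.7 CPM (median 54.6) in the 9 libraries without YAP5SA (log2 1.09 ± 0.18 SE, edgeR adjusted p = 4.4e-04). Ddit3, the factor CHOP, had 22.7, 39.9 and 22.2 CPM in YAP5SA 1, 2 and 3 and 26.4 and 35.4 CPM in YAP5SA_MEF2A 1 and 2, against 54.6 to 87.3 CPM (median 73.96) in the 9 libraries without YAP5SA (log2 -1.40 ± 0.17 SE, edgeR adjusted p = 3.2e-05). Each gene's groups were apart, in opposite directions. Ddit4, an inhibitor of mTORC1, rose by log2 2.08 ± 0.35 SE, edgeR adjusted p = 5.6e-04. Of 18 NRF2 and antioxidant genes 4 (22.2%) were higher and 3 (16.7%) lower (median 0.33, and 0.0026 in batch 1). Txnrd1, thioredoxin reductase, had 114, 86.4 and 108 CPM in YAP5SA 1, 2 and 3 and 79.1 and 91.98 CPM in YAP5SA_MEF2A 1 and 2, against 32.2 to 63.997 CPM (median 45.4) in the 9 libraries without YAP5SA (log2 0.999 ± 0.16 SE, edgeR adjusted p = 4.7e-04). Gclc, of glutathione synthesis, rose by log2 1.12 ± 0.22 SE, edgeR adjusted p = 0.00223. Nfe2l2, which encodes NRF2 itself, fell by 0.95 ± 0.20 (adjusted p = 0.00370), and Sod2, mitochondrial superoxide dismutase, by 0.64 ± 0.13 (adjusted p = 0.00278). The sign of Sod2 turned with library totals. Of 19 p53 targets 6 were higher and 1 lower (median 0.53), with Bax, which promotes cell death, at 57.2, 49.7 and 71.8 CPM in YAP5SA 1, 2 and 3 and 52.7 and 46.1 CPM in YAP5SA_MEF2A 1 and 2, against 24.2 to 39.3 CPM (median 33.3) in the 9 libraries without YAP5SA (log2 0.89 ± 0.15 SE, edgeR adjusted p = 5.2e-04). The p53 list had 31.6% called higher and 5.26% lower, and the calls of its members Fas, Phlda3 and Cdkn1a ended without YAP5SA 3.

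Of 20 G1 cyclins, kinases and inhibitors 4 (20.0%) were higher, against 10.4% of all genes called higher, with a median of 0.38. Of 32 DNA replication genes 3 were higher (median 0.21) and of 32 mitosis and cytokinesis genes 3 (median 0.67), 9.38% in each list and near the share of all genes. The medians differed between the 2 comparisons by MEF2A state. Mitosis genes had a median of 1.40 in YAP5SA_MEF2A against MEF2A and 0.17 in YAP5SA against Control, and DNA replication genes 0.55 and 0.033. This difference was not tested over the lists. Relative to the mean of the libraries without YAP5SA of the same batch, the median of the mitosis genes was 0.84 to 1.20 in the YAP5SA libraries, 0.82 and 0.38 in YAP5SA_MEF2A 1 and 2, -1.11 to -0.17 in the 4 MEF2A libraries and 0.58 to 1.49 in Control 1, 2, 4 and 5, with Control 3 at -1.24. The YAP5SA libraries thus lay within the range of the Control libraries, and those of both MEF2A groups did not overlap. Pola2 and Cenpa were lower. Aurkb, the mitotic kinase Aurora B, had 22.04, 14.4 and 27.3 CPM in YAP5SA 1, 2 and 3 and 13.98 and 11.6 CPM in YAP5SA_MEF2A 1 and 2, against 3.85 to 18.2 CPM (median 5.32) in the 9 libraries without YAP5SA (log2 1.39 ± 0.33 SE, edgeR adjusted p = 0.00670). Control 4 and Control 5 lay within the range of the libraries with YAP5SA. Kif20a, a kinesin of cytokinesis, had 9.24, 9.14 and 9.77 CPM in YAP5SA 1, 2 and 3 and 11.1 and 7.59 CPM in YAP5SA_MEF2A 1 and 2, against 1.28 to 11.7 CPM (median 1.71) in the 9 libraries without YAP5SA (log2 1.80 ± 0.51 SE, edgeR adjusted p = 0.0204). Control 4 was the highest library of all 14 for Kif20a. Cdt1, which licenses replication, rose by log2 0.74 ± 0.16 SE, edgeR adjusted p = 0.00397, and Ccnd3, cyclin D3, by log2 1.09 ± 0.25 SE, edgeR adjusted p = 0.00542. The cyclin-dependent kinase inhibitors Cdkn1a (log2 1.13 ± 0.30 SE, edgeR adjusted p = 0.0124) and Cdkn1b (log2 0.86 ± 0.28 SE, edgeR adjusted p = 0.0417) rose as well. The call of Aurkb ended without the YAP5SA_MEF2A libraries, those of Kif20a and Ccnd3 without Control 1 and 2, that of Kif20a also without Control 1, Control 2 or YAP5SA_MEF2A 1 singly, and those of Ccne1, Cdkn1b, Rfc5, Dnmt1 and Prc1 without any of several single libraries. Without Control 1, Control 2 and YAP5SA 3 no gene of the 3 lists was called.

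Of 10 genes of the nuclear envelope and nuclear long noncoding RNAs 4 (40.0%) were higher (median 0.52), against 10.4% of all genes. Lmna, lamin A/C, had 127, 68.8 and 162 CPM in YAP5SA 1, 2 and 3 and 89.6 and 76.04 CPM in YAP5SA_MEF2A 1 and 2, against 49.99 to 74.8 CPM (median 54.5) in the 9 libraries without YAP5SA (log2 0.94 ± 0.17 SE, edgeR adjusted p = 9.1e-04), with overlapping levels. None of 28 interferon and antigen presentation genes was called by edgeR or DESeq2, 0 had an unadjusted p below 0.05 in edgeR and limma-voom called 1 higher, and their median was -0.64 (0.15 in limma-voom). It turned to 1.05 without Control 1 and 2, when 8 of them were called higher. H2-D1, a class I antigen gene, had 68.5, 29.97 and 549 CPM in YAP5SA 1, 2 and 3 and 52.3 and 240.1 CPM in YAP5SA_MEF2A 1 and 2, against 25.8 to 1124 CPM (median 43.5) in the 9 libraries without YAP5SA (log2 0.64 ± 1.04 SE, edgeR adjusted p = 0.726), with Control 2 the highest library.

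Cardiomyocyte markers were abundant in every library, with summed levels of 29798 to 47394 CPM in libraries with YAP5SA and 54071 to 95891 CPM in those without. These ranges did not overlap, and 5 of 10 markers were lower (median -0.63). Called lower were 50% of these markers and 50% of the endothelial ones, against 8.97% of all genes. Endothelial markers summed to 351 to 511 CPM against 460.2 to 1066 CPM, and 6 of 12 were lower (median -0.67), among them Egfl7 (log2 -1.03 ± 0.18 SE, edgeR adjusted p = 7.8e-04) and Tek (log2 -1.07 ± 0.19 SE, edgeR adjusted p = 0.00111). The calls of Egfl7, Tek, Tie1 and Kdr ended with library totals, and also without Control 1, Control 2 and YAP5SA 3. That of Kdr ended in batch 1 alone and without YAP5SA 3 as well. Macrophage markers summed to 1098 CPM in YAP5SA 3 and to 85.4 to 202 CPM in the other 4 libraries with YAP5SA, against 55.9 to 210.2 CPM in those without. Of 12 macrophage markers 3 were higher (median 1.37), and none was called without YAP5SA 3 or in batch 1, where the median was 0.24. Fibroblast markers summed to 1568 to 3377 CPM against 1391 to 2331 CPM, with the highest value again in YAP5SA 3, and 3 of 12 were higher and 1 lower (median 0.19, and -0.094 in batch 1). The calls of the higher ones, Lum, Dcn and Mfap5, ended without YAP5SA 3 and in batch 1 alone. Of 7 epicardial markers 3 were higher, led by Wt1, a transcription factor of the epicardium, at 84.9, 75.3 and 39.7 CPM in YAP5SA 1, 2 and 3 and 57.3 and 84.2 CPM in YAP5SA_MEF2A 1 and 2, against 10.3 to 20.8 CPM (median 13.5) in the 9 libraries without YAP5SA (log2 2.24 ± 0.22 SE, edgeR adjusted p = 3.1e-06). Wt1 did not overlap between groups, but the epicardial list did. Its 7 members had a median of 0.68, with 4 above 0 and the lowest at -0.48. Relative to the libraries without YAP5SA of the same batch, the list's median was -0.18 in YAP5SA_MEF2A 2 and 0.13 in YAP5SA 2, against 0.72 in Control 2. Called higher were 25.0% of macrophage, 25.0% of fibroblast and 42.9% of epicardial markers, against 10.4% of all genes. No marker of lymphocytes, mural cells, Schwann cells, adipocytes or red cells was called by edgeR, and of 24 tested 3 had an unadjusted p below 0.05, 2 mural and 1 of Schwann cells. DESeq2 called 1 of these, a Schwann cell marker, and limma-voom 2. The part of other cell types in the results for matrix, AP-1, p53 and ATF4 genes was not tested.

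**Figure D4:**
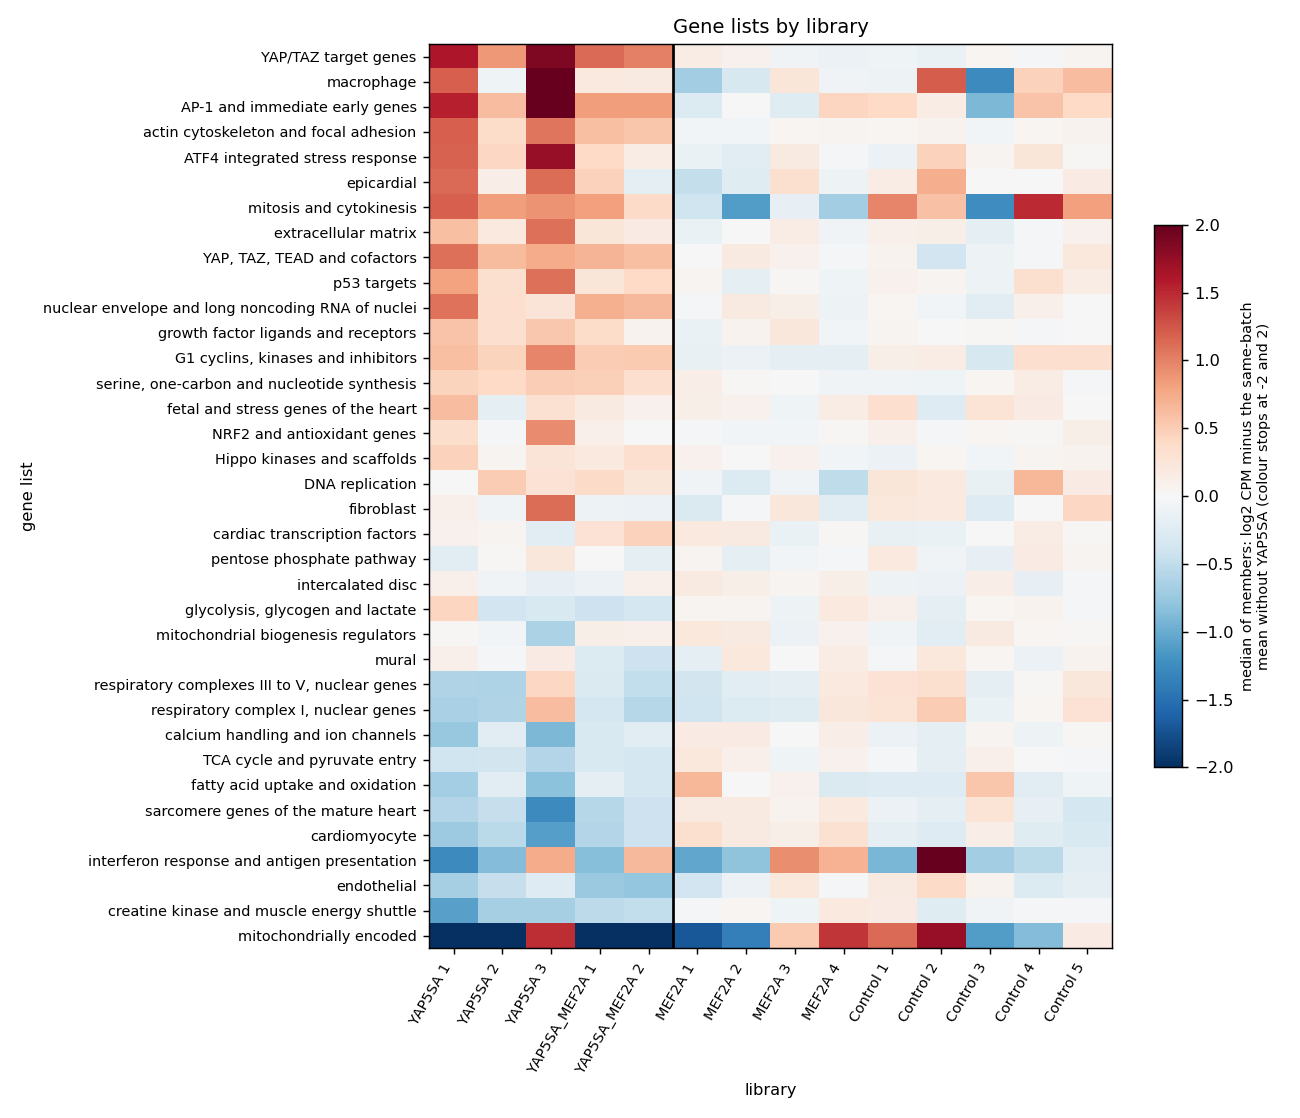
Gene lists (rows, from the highest to the lowest median fold change) by library (columns, the 5 with YAP5SA left of the line and the 9 without right of it); colour gives the median over tested members of log2 CPM minus the mean of the libraries without YAP5SA of the same batch, from -2 (blue) to 2 (red). YAP targets are red in all 5 libraries with YAP5SA and creatine kinase genes blue, while macrophage, interferon and mitochondrially encoded genes follow single libraries such as YAP5SA 3 and Control 2.

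The effect was next compared between the MEF2A states in 2 comparisons that share no library. YAP5SA against Control called 485 genes higher (2.86% of 16968) and 247 lower (1.46%), 4.31% together, and YAP5SA_MEF2A against MEF2A called 1213 higher (7.61% of 15946) and 1310 lower (8.22%), 15.8% together. Of 482 genes higher in the first and tested in both, 470 had the same sign in the second and 353 were called higher there, 73.2% of the first list and 29.2% of the second, where 7.77% of all genes tested in both were called higher. Of 247 genes lower in the first, 244 had the same sign and 175 were called lower, 70.9% and 13.4% of the lists, against 8.41% of all genes. None was called in the opposite direction. Genes higher in YAP5SA against Control had a median of 1.79 there and 1.21 in YAP5SA_MEF2A against MEF2A, and the lower genes -1.45 and -0.91. Genes higher in YAP5SA_MEF2A against MEF2A had a median of 1.19 there and 1.00 in YAP5SA against Control, and the lower genes -0.77 and -0.72. In each case the genes were chosen where the first median was taken, so nothing is read from its larger size. Across 15566 genes, which are not independent replicates, the fold changes of the 2 comparisons had a Pearson correlation of 0.57. Leaving out each library in turn put the shared share of higher genes between 50.2% and 88.7% and that of lower genes between 43.0% and 85.0%. The groups also differ in sex by Xist, with the 3 YAP5SA libraries male and both YAP5SA_MEF2A libraries female.

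**Figure D5:**
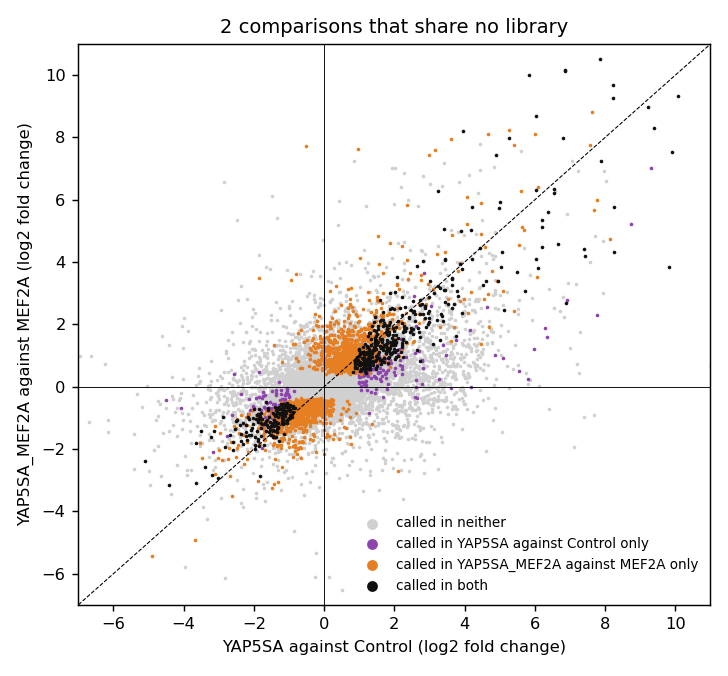
Log2 fold change of YAP5SA_MEF2A against MEF2A (vertical axis) and of YAP5SA against Control (horizontal axis) for 15566 genes; each point is a gene, coloured by the comparison in which it was called, and the dashed line marks equal change. Black points, called in both, lie in the upper right and lower left quadrants only, 353 and 175 of them.

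The difference in the YAP5SA effect with and without the MEF2A virus was then tested gene by gene. The interaction was called for 0 of 17987 genes in edgeR, where 441 (2.45%) had an unadjusted p below 0.05. limma-voom called 0, with 593 below 0.05, and DESeq2 called 21, with 585 below 0.05. Without YAP5SA 2 edgeR called 11. Over 12378 genes at a mean log2 CPM of at least 1, the median SE was 0.45 for the interaction and 0.23 for the main effect, so this design resolves differences between the 2 effects less finely than the effect itself. The 5 libraries with YAP5SA each moved in the called direction in genes chosen from the other comparison. Over genes higher in YAP5SA_MEF2A against MEF2A, the medians were 1.20, 0.76 and 1.14 in YAP5SA 1, 2 and 3 relative to Control. Over genes higher in YAP5SA against Control, they were 1.27 and 1.21 in YAP5SA_MEF2A 1 and 2 relative to MEF2A. Over lower genes the medians were -0.80, -0.28 and -1.02 in YAP5SA 1, 2 and 3, and -0.99 and -0.85 in YAP5SA_MEF2A 1 and 2. YAP5SA 2 moved least in both directions.

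Within batch 1, with 4 libraries with YAP5SA and 4 without, 978 genes were higher (6.35%) and 835 lower (5.42%) of 15397. Batch 2 has 1 library with YAP5SA, the one with 32.2% mitochondrial counts and 1098 CPM of macrophage markers, so its values describe that library against 5 others. A fit that assumes it to vary like the others gave 1186 higher (6.07%) and 1240 lower (6.35%) of 19531, with no second library with YAP5SA to check them. Of 964 genes higher in batch 1 and tested in both, 861 (89.3%) had the same sign in batch 2, against 49.0% of all genes. Of 834 lower genes 755 (90.5%) had the same sign, against 51.0% of all genes. The higher genes, chosen in batch 1, had medians of 1.32 in batch 1 and 1.01 in batch 2, and the lower genes -0.93 and -1.07. Across 15297 genes, which are not independent replicates, the fold changes of the batches had a Pearson correlation of 0.37. The median of 23 of the 30 pathway lists had the same sign in both batches. YAP targets had medians of 1.22 and 1.69 in batches 1 and 2, sarcomere genes -0.57 and -1.20, and serine and one-carbon genes 0.36 and 0.47. The median took opposite signs in the other 7 lists, which were cardiac transcription factors (0.19 and -0.32), DNA replication (0.26 and -0.068), the pentose phosphate pathway (-0.12 and 0.20), both lists of nuclear respiratory genes, mitochondrially encoded genes and interferon genes (-1.09 and 1.02).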

How the data were processed

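RNA of PCM1-enriched nuclei was sequenced from poly-A enriched, non-directional libraries, per the labels' protocols. The authors deposited raw counts of reads per Ensembl gene. STAR, limma, edgeR and build GRCm38 are named in the submitters' processing notes; the counting program, its annotation and strand setting are not given in the sources used here. Gene names, places and overlaps came from GENCODE vM21 on GRCm38, which named 54409 of 54446 IDs.

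Counts were analysed in R 4.3.3 with edgeR 4.0.16. Genes were filtered with filterByExpr (minimum count 10, minimum total 15), scaled by TMM and fitted by robust quasi-likelihood with terms for YAP5SA, the MEF2A virus and batch, leaving 10 residual degrees of freedom; the biological coefficient of variation was 0.47. Genes were called at a Benjamini-Hochberg adjusted p below 0.05 over all 16752 genes tested. The 2 comparisons by MEF2A state and the 2 batches were fitted on their own libraries. Exact intervals of count ratios are at 95% and cover counting error only. Log2 levels used a prior count of 2.

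Genes with values in the text are Yap1 and Mef2a, the 15 largest rises and the 15 largest falls among called genes whose mean log2 CPM was 1 or more, with a settled symbol and batch-centred groups that did not overlap, and up to 4 called members of each gene list by p (with none, the 2 most abundant); other called members are named without values, and some members are not reported here. The comparison, its gene lists and tests were chosen with earlier results of these data known. In simulated counts for 16227 genes, the main fit recovered 38% of genes changed by a log2 of 1 and 87% of those changed by 2, with 2 false calls of 127. The simulation changed 200 genes, evenly up and down, and drew counts independently with no batch or MEF2A effect and no library rich in mitochondrial RNA. Its share of false calls therefore does not carry over to these libraries. No 2 columns were identical. Alternatives, with DESeq2 1.42.0 and limma 3.58.1 (voom) among them, are given in the closing section. Promoter windows and their coordinates are from RefSeq (GRCm38.p6); 11794 of 16752 genes matched a window by symbol.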

Additional observations from a re-analysis of the deposited data

Results flagged for a closer look

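In the Control (n = 5) and MEF2A (n = 4) groups, the highest or lowest library of each gene given with values was set against the others of its group. Of 259 such tests 21 found a library far from the rest by Dixon's 95% criterion. In 11 of them every other library of the group had 0 counts, so that any trace meets the criterion. Of the 248 tests with counts in 2 or more libraries of the group 10 met it, where chance gives about 1 in 20. The YAP5SA and YAP5SA_MEF2A groups are too small for it.

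Control 3 stood high in 5 genes. It had 1716 CPM of Acacb, against 789 to 872 CPM in the other Control libraries, and 2606 CPM of Ankrd1, against 752 to 1210.3 CPM. It had 361 CPM of Syt7 (others 179 to 215 CPM), 187 CPM of Nfe2l2 (others 109.7 to 118 CPM) and 59.5 CPM of Lmna (others 54.0 to 54.5 CPM).

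Control 2 had 1124 CPM of H2-D1 (others 25.8 to 68.0 CPM), 2.10 CPM of Scel (others 0 to 0.462 CPM) and a low 50.2 CPM of Uqcrc2 (others 62.4 to 65.4 CPM). Control 1 had 68.1 CPM of Ckm (others 37.7 to 44.3 CPM). Control 5 had a low 228 CPM of Atp5h (others 251 to 258 CPM).

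The other 11 were traces in a single library while the rest of the group had 0 counts. In Control 4 these were Igfbp2 (0.945 CPM), Mybph (0.540 CPM) and Peak1os (0.0675 CPM). In Control 5 they were Lrtm2 (0.192 CPM), Tmprss2 (0.308 CPM) and Vnn1 (0.346 CPM). In the MEF2A group they were Cdh15 (0.0543 CPM) and Myh1 (0.380 CPM) in MEF2A 1, Nog (0.0623 CPM) and Tmprss2 (0.187 CPM) in MEF2A 2, and Sema3e (0.577 CPM) in MEF2A 3. All 11 levels were below those of every library with YAP5SA, a separation for which these genes were in part picked.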

How the results depend on the processing

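The count of 3248 genes called in the YAP5SA main effect stayed within 1.5 times of itself under 15 alternatives of scaling, filter, tool, covariate and libraries, from 2402 to 4248. It fell to 1813 in batch 1 alone, to 1414 without the YAP5SA_MEF2A libraries and to 558 without Control 1, Control 2 and YAP5SA 3, fits on fewer libraries. The last of these has no Control library in batch 1 and no library with YAP5SA in batch 2. Leaving out each library in turn gave 1799 (without YAP5SA 3) to 3719 (without YAP5SA 2). Of the 3248 calls, 1451 (720 higher, 731 lower) were kept in all 14 of these fits. Over all 32 alternatives 274 were kept, 245 higher and 29 lower, and without the fit on library totals 398, 245 higher and 153 lower. With library totals 1812 of the 3248 calls were kept and 443 took the other sign, none of them called. The signs of Mef2a (0.21), Uqcrc2 (0.047), Atp5b (0.13) and Sod2 (0.026) turned in that fit; the cause was not tested.

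The interaction moved from 0 calls to 21 in DESeq2, and to between 0 and 11 without 1 library, the 11 without YAP5SA 2. Leaving out 1 library, an alternative added after the data were seen, gave 182 to 1600 calls in YAP5SA against Control (732 with all), 1111 to 3690 in YAP5SA_MEF2A against MEF2A (2523), 845 to 2142 in batch 1 (1813) and 1770 to 3617 in batch 2 (2426). In the fits with a lone library in a group, that library was assumed to vary like the others.

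The replicate numbers do not pair libraries: 0 of 16 same-numbered pairs had deviations that correlated above 0.1 (-0.21 to 0.096), and 3 of 13 libraries correlated best with their own number. A replicate block in place of batch gave 2402 calls, 1269 higher and 1133 lower. Depth limits genes near 1 CPM and below, where fitted changes rest on few counts and on the prior count.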

Other observations

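Genes of skeletal muscle outside the lists, picked after their values were seen, did not move as 1 group. Myh8, the perinatal skeletal myosin next to Myh1 and Myh2, had 26.4, 60.5 and 37.2 CPM in YAP5SA 1, 2 and 3 and 102 and 80.1 CPM in YAP5SA_MEF2A 1 and 2, against 0.685 to 4.99 CPM (median 2.66) in the 9 libraries without YAP5SA (log2 4.40 ± 0.50 SE, edgeR adjusted p = 7.6e-05). Cacna1s, the calcium channel of skeletal muscle, had 21.9, 19.3 and 19.6 CPM in YAP5SA 1, 2 and 3 and 59.3 and 61.5 CPM in YAP5SA_MEF2A 1 and 2, against 0 to 2.84 CPM (median 1.43) without YAP5SA (log2 5.02 ± 0.79 SE, edgeR adjusted p = 0.0012). Both were highest in the YAP5SA_MEF2A libraries, as Myh1 and Myh2 were, and neither group overlapped. Myog, the factor that drives muscle differentiation, was at 0.481 to 1.48 CPM in the 5 libraries with YAP5SA and at 0 to 0.125 CPM in those without (log2 5.80 ± 1.10 SE, edgeR adjusted p = 0.0015).

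Other skeletal muscle genes were not called higher. Ryr1, the calcium release channel of skeletal muscle, was at 0.0807 to 0.957 CPM with YAP5SA and 0 to 2.13 CPM without (edgeR adjusted p = 0.98). Actn3, an actinin of fast fibres, was at 0.234 to 0.770 CPM with YAP5SA and 0 to 1.97 CPM without (edgeR adjusted p = 0.96). Tnni2, the fast troponin I, was at 0.646 to 3.02 CPM with YAP5SA and 0 to 3.48 CPM without (edgeR adjusted p = 0.56). Tnnt3, the fast troponin T, was lower, at 2.42 to 8.62 CPM with YAP5SA and 4.54 to 26.7 CPM without (log2 -1.13 ± 0.37 SE, edgeR adjusted p = 0.038), with overlapping levels.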
